A study of Mus musculus with 6 samples.

Results

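The thioredoxin and glutaredoxin system was followed through 8 genes, chosen by name from the 43629 genes in the deposited tables: the thioredoxins Txn1 and Txn2, the thioredoxin reductases Txnrd1, Txnrd2 and Txnrd3, the thioredoxin inhibitor Txnip, and the glutaredoxins Glrx and Glrx2. All 8 were found under a single gene ID each, and all 8 passed the filter on low counts. The RNA-seq libraries came from dermal fibroblasts, which make the collagen matrix of the skin, prepared as primary cells from newborn mice, grown for 6 days and sampled at passage 1. Every mouse carried Col1a2Cre, which expresses the recombinase Cre in fibroblasts, on a mixed background of 50% C57Bl/6 and 50% FVB/N. In 3 mice a constitutively active mutant of Nrf2 (caNrf2) was added to Cre. Nrf2, the product of Nfe2l2, is a transcription factor that switches on antioxidant genes. The other 3 mice carried Cre only (ctrl). The design text names 3 mice per group, and each library was taken to stand for 1 mouse. P-values therefore measure the spread between these 6 cultures.

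Thioredoxins are small proteins that reduce disulfide bonds in other proteins with a pair of cysteines, and thioredoxin reductases restore them with electrons from NADPH. The cytosol and the mitochondria hold separate sets: Txn1 and Txnrd1 encode the cytosolic pair, Txn2 and Txnrd2 the mitochondrial pair, and Txnrd3 a reductase with an added glutaredoxin domain that is best known from testis. Txnip binds reduced thioredoxin and also lowers glucose uptake, and its transcription is known to follow glucose through the Mondo factors. Glutaredoxins resemble thioredoxins but are reduced by glutathione, which glutathione reductase (Gsr) regenerates.

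Levels are given as CPM, expected counts brought to a common library size with TMM factors (which align the bulk of genes between libraries), as mean ± SD with n = 3. Levels of different genes are compared only as TPM, which is corrected for transcript length. A gene was called where the edgeR quasi-likelihood test gave a Benjamini-Hochberg adjusted p under 0.05 over all 15341 genes tested, and the adjusted p-values below are from that test.

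Library totals ranged from 30168400 to 45164208 expected counts, so that 1 read was worth 0.0221 to 0.0331 CPM. The level of Nfe2l2 was 3.48-fold higher in caNrf2, 380 ± 43.2 against 109 ± 5.87 CPM (adjusted p = 5.96e-06), which matches the labels of all 6 libraries. The defining fibroblast markers were abundant, with Col1a1 at a mean of 14785 CPM, and the 10 fibroblast markers together held 41928 to 59486 CPM in ctrl and 31078 to 36608 CPM in caNrf2 (2 higher, 5 lower). Markers of leukocytes and of skeletal muscle moved with the genotype. The 15 macrophage and leukocyte markers summed to 25.4 to 71.1 CPM in ctrl and 171 to 204 CPM in caNrf2, with 14 higher, and Lyz2 the most abundant at a mean of 62.1 CPM. The 15 skeletal muscle markers summed to 151 to 166 and 242 to 292 CPM, with 12 of 14 tested higher, led by Myh3 at 61.2 CPM. Sums for the 10 keratinocyte markers were 183 to 307 and 255 to 423 CPM, led by Krt5, with 1 of 9 tested higher, and overlapped between the groups. Those of endothelial cells (led by Cdh5), of melanocytes and Schwann cells and of adipocytes (Cd36) stayed between 7.98 and 32.0 CPM in every library. In each list 1 marker was higher. The sums of the groups did not overlap for melanocytes and Schwann cells (15.4 to 19.4 CPM in ctrl, 20.3 to 25.0 in caNrf2). Nor did they for adipocytes (14.5 to 18.8 and 22.4 to 32.0 CPM). For endothelial cells they overlapped (7.98 to 10.8 and 9.58 to 11.3 CPM). No marker was at 0 in all libraries. The part of these cells in the changes below was not tested, and in bulk RNA fewer cells of a type cannot be told apart from less RNA per cell. Within ctrl the leukocyte sum was 25.4, 69.4 and 71.1 CPM in replicates 1 to 3. In the same order Txnrd1 had 177, 203 and 174 CPM and Txn1 181, 178 and 169 CPM. Txn2 had 96.8, 111 and 103 CPM, Glrx 24.0, 22.4 and 20.5 CPM and Txnip 68.3, 51.8 and 70.4 CPM. A link between the sum and these genes was not tested.

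Of the 8 genes, 4 were higher in caNrf2 (Txnrd1, Txn1, Glrx and Txn2), 1 was lower (Txnip) and 3 were not called (Txnrd2, Txnrd3 and Glrx2). Among all genes tested 21.5% were called, 12.5% higher and 9.03% lower (1917 and 1385 genes). With upper-quartile factors 1744 genes were higher and 1750 lower. The median log2 fold change of the 8 was 0.14, beside -0.003 over all genes. The cytosolic member of each pair had the larger fold change: Txnrd1 rose 5.30-fold, Txn1 2.03-fold and Glrx 1.96-fold. Txn2 rose 1.28-fold, and neither Txnrd2 nor Glrx2 was called. The Glrx2 total is mitochondrial only in part, as set out below. Txnip, the inhibitor, fell to 0.521 of its ctrl level.

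**Figure D1:**
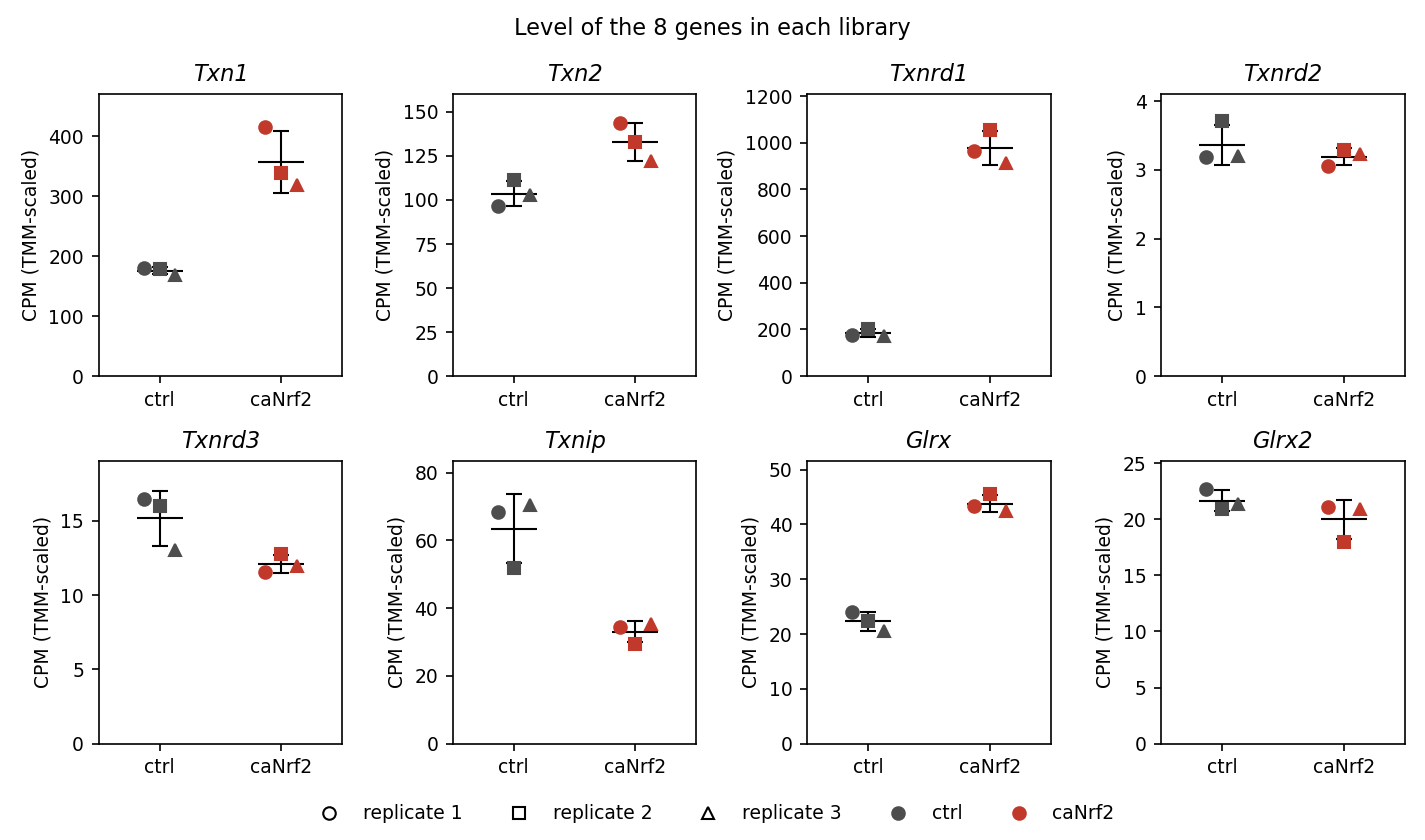
Level of each of the 8 genes (panels) in every library, in TMM-scaled CPM on linear axes that start at 0. Symbols mark replicates, horizontal bars the mean of 3 libraries and whiskers 1 SD. All caNrf2 libraries lie above all ctrl libraries for Txn1, Txn2, Txnrd1 and Glrx, and below them for Txnip and Txnrd3.

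The CPM of the groups did not overlap for 6 of the 8 genes, 4 with caNrf2 higher and 2 with it lower. Such separation was found for 42.1% of all genes tested, 22% higher and 20.1% lower. The gene outside the called set with separate groups was Txnrd3. The plot of levels by library also shows how different the genes were in scatter: the largest spread relative to its mean within a group was that of Txnip in ctrl, where replicate 2 lay below the other two.

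Txn1 (ENSMUSG00000028367, chr4:57943373-57956411, minus strand, GRCm38) encodes the cytosolic thioredoxin and is the most abundant gene of the system per length in both groups. It stood at 181, 178 and 169 CPM in ctrl replicates 1 to 3 and at 416, 338 and 318 CPM in caNrf2 replicates 1 to 3. The lowest caNrf2 library was well above the highest ctrl library, and caNrf2 replicate 1 was the highest of all. The means were 176 ± 6.20 and 357 ± 51.6 CPM, a 2.03-fold rise (95% confidence interval 1.71 to 2.42) with a log2 fold change of 1.02, SE 0.11 and adjusted p of 0.000322. In TPM it rose from 344 ± 10.98 to 669 ± 61.5.

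Txn2 (ENSMUSG00000005354, chr15:77915047-77929006, minus strand) encodes the mitochondrial thioredoxin. Its levels were 96.8, 111 and 103 CPM in ctrl and 143, 133 and 122 CPM in caNrf2. The groups did not overlap, but the gap between the highest ctrl and the lowest caNrf2 library was small. The rise was 1.28-fold (1.11 to 1.47), from 104 ± 7.29 to 133 ± 10.7 CPM, with a log2 fold change of 0.36, SE 0.09 and adjusted p of 0.0219. The call was lost when ctrl replicate 1 (0.30, adjusted p = 0.0795), ctrl replicate 3 (0.35, adjusted p = 0.0738) or caNrf2 replicate 2 (0.35, adjusted p = 0.0691) was left out.

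The active site that gives thioredoxins and glutaredoxins their chemistry is a pair of cysteines with 2 codons between them, and the coding bases around it are shown for the 4 members to place them side by side. The sequences are from the GENCODE M21 transcript with the most counts of each gene (GRCm38), written on the coding strand, 10 codons each, with the cysteine codons in capitals. They lie at chr4:57951812-57951841 (minus strand, codons 29 to 38) in Txn1, at chr15:77924642-77927696 (minus strand, codons 87 to 96, across a splice junction) in Txn2, at chr13:75840026-75840055 (plus strand, codons 20 to 29) in Glrx and at chr1:143745083-143745112 (plus strand, codons 34 to 43) in Glrx2.
Txn1: gctacgtggTGTggacctTGCaaaatgatc
Txn2: gcacagtggTGTggccccTGCaagatccta
Glrx: aagcccaccTGCccctacTGCagaaagacc
Glrx2: aaaacatccTGCtcttacTGTtccatggcc
The coding sequence of Txn2 is longer than that of Txn1, 501 against 318 bases, and its cysteine pair begins at codon 90 instead of codon 32. Over 310 aligned coding bases Txn1 and Txn2 shared 55.8%, and Glrx and Glrx2 shared 60.7% of 295.

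Txnrd1 (ENSMUSG00000020250, chr10:82859206-82897724, plus strand) encodes the cytosolic, selenium-containing thioredoxin reductase, and it changed most among the 8 genes. Its levels were 177, 203 and 174 CPM in ctrl and 963, 1057 and 914 CPM in caNrf2. Every caNrf2 library was far above every ctrl library, and the scatter within each group was small beside the gap. The means were 185 ± 16.2 and 978 ± 72.3 CPM, a 5.30-fold rise (4.50 to 6.23) with a log2 fold change of 2.40, SE 0.10 and adjusted p of 8.95e-07. By p-value the gene ranked 58 and by log2 fold change 227 among the 15341 tested. In TPM it went from 103 ± 9.09 to 522 ± 52.5. The annotated locus overlaps Eid3 on the same strand, for which no row was used here. The tables list a single Txnrd1 transcript (ENSMUST00000020484), while GENCODE M21 annotates 8, of which 5 are protein coding. A comparison of Txnrd1 by transcript was therefore not possible with these counts.

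Txnrd2 (ENSMUSG00000075704, chr16:18426417-18479073, plus strand), the mitochondrial reductase, had the lowest level of the 8 genes per length. It stood at 3.19, 3.71 and 3.21 CPM in ctrl and at 3.06, 3.29 and 3.22 CPM in caNrf2, from 97 to 166 counts per library. The groups overlapped. The fold was 0.947 (0.747 to 1.2), with a log2 fold change of -0.08, SE 0.15 and adjusted p of 0.744, so that at this depth a fall to 0.747 or a rise to 1.2 lies within the interval.

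Txnrd3 (ENSMUSG00000000811, chr6:89643988-89675529, plus strand), the reductase with a glutaredoxin domain, stood at 16.4, 16.0 and 13.1 CPM in ctrl and at 11.6, 12.8 and 11.9 CPM in caNrf2. All caNrf2 libraries were below all ctrl libraries, with ctrl replicate 3 close to the caNrf2 group. The fold was 0.797 (0.670 to 0.948), with a log2 fold change of -0.33, SE 0.11 and adjusted p of 0.0656, which did not pass the threshold. It passed with upper-quartile factors (-0.37, adjusted p = 0.0436) and without ctrl replicate 3 (-0.43, adjusted p = 0.0312).

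**Figure D2:**
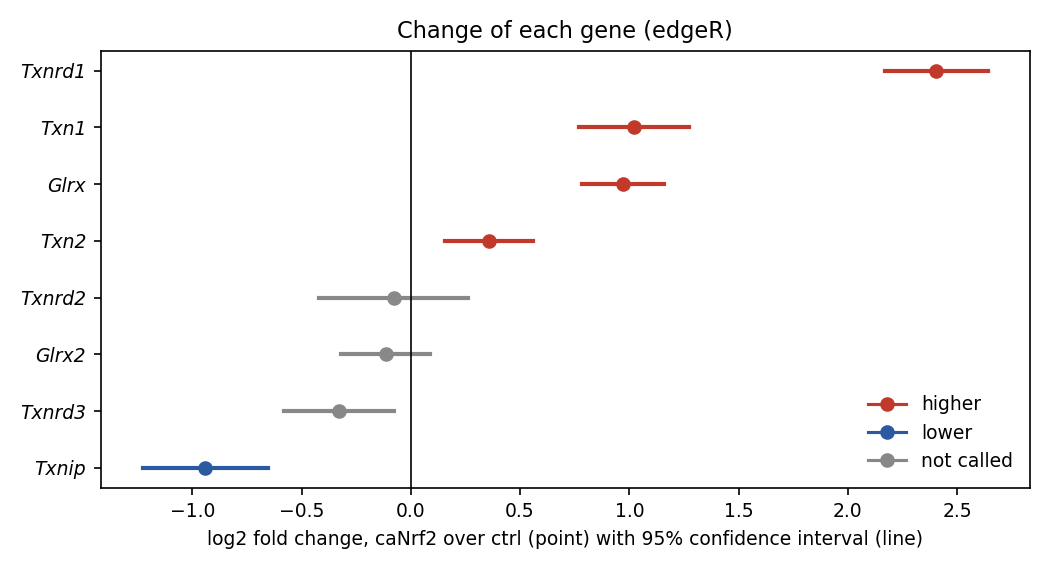
Log2 fold change of each of the 8 genes, caNrf2 over ctrl, as estimated by edgeR (points) with the 95% confidence interval (lines). Colours show genes called higher, called lower and not called. Txnrd1 stands apart at 2.40, Txn1 and Glrx lie near 1, and the intervals of Txnrd2 and Glrx2 span 0.

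The 3 reductases have a selenocysteine next to their last amino acid, encoded by an in-frame TGA that is otherwise a stop codon. The last 10 codons are shown because they carry this shared feature and the stop codon beyond it. GENCODE M21 annotates the TGA, here in capitals, as selenocysteine in all 3. The stretches are on the plus strand of GRCm38 at chr10:82896016-82896045 in Txnrd1, chr16:18477751-18477780 in Txnrd2 and chr6:89674768-89674797 in Txnrd3.
Txnrd1: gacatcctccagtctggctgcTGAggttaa
Txnrd2: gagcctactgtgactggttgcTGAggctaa
Txnrd3: gacattactcagaaaggctgcTGAggctag
The stop codon is the second codon after the TGA in each. Coding sequences of Txnrd1 and Txnrd3 shared 69.3% of 1497 aligned bases, those of Txnrd1 and Txnrd2 62.5% of 1460, and those of Txnrd2 and Txnrd3 62.9% of 1551.

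Per length, Txnrd1 made up 87.8 ± 0.692% of the summed TPM of the 3 reductases in ctrl and 97.8 ± 0.116% in caNrf2. Txnrd3 stood at 0.0999 of the Txnrd1 TPM in ctrl and at 0.0150 in caNrf2. In all 6 libraries the order of the reductases was Txnrd1, Txnrd3, Txnrd2.

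Because Txnrd1 changed most, the bases upstream of its start are shown together with a motif that Nrf2 is known to bind, the core of the antioxidant response element, TGACNNNGC, searched on both strands. The sequence is from the RefSeq promoter table (GRCm38.p6), chr10:82858956-82859178, plus strand, 223 bases that end before the first annotated exon base of the locus, with the match in capitals.
Txnrd1: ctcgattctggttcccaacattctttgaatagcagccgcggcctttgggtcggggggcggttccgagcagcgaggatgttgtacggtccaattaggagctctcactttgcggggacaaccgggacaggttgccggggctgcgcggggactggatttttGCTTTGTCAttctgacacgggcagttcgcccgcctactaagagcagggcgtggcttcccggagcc
The match reads TGACAAAGC on the minus strand, from base -92 to base -84 relative to the start, and it was found in 1 of the 3 Txnrd1 windows in that table. Windows of 300 bases (250 before and 50 after a start) of Txn1, Txn2, Txnrd2, Txnrd3, Txnip, Glrx and Glrx2 held none. The same letters occurred in 12.4% of all 32851 windows. A match is a description of letters and not a binding site, and a window without one says only that these letters are not in it.

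Txnip (ENSMUSG00000038393, chr3:96557957-96561883, plus strand), the thioredoxin inhibitor, was the 1 member called lower with all libraries and TMM scaling. Its levels were 68.3, 51.8 and 70.4 CPM in ctrl and 34.4, 29.6 and 35.2 CPM in caNrf2. The groups did not overlap, and replicate 2 was the lowest of its group in both. The means were 63.5 ± 10.2 and 33.1 ± 3.06 CPM, a fall to 0.521 of the ctrl level (0.428 to 0.636), with a log2 fold change of -0.94, SE 0.13 and adjusted p of 0.00105. Of all genes tested 97.4% had a higher log2 fold change. An antisense gene at the locus, Gm15441, had 3 to 7 counts per library and was not tested.

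The promoter of Txnip is shown for the element through which its transcription is known to follow glucose, a carbohydrate response element, searched on both strands as CACGNG, any 5 bases and CACGNG again. It does not overlap in letters with any match of the antioxidant motif, which is absent from this window. The sequence is chr3:96557707-96557956, plus strand, the 250 bases before the start in the same RefSeq table, with the match in capitals.
Txnip: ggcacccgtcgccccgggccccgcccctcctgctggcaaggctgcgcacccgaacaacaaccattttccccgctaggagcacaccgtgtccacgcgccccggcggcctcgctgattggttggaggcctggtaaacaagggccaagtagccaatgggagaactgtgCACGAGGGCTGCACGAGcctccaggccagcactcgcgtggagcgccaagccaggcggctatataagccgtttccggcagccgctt
The match lies on the plus strand from base -85 to base -69. It was found in 16 of all 32851 windows (0.0487%) and in none of the windows of the other 7 members.

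Glrx (ENSMUSG00000021591, chr13:75839868-75850151, plus strand) encodes glutaredoxin 1 of the cytosol, which removes glutathione from proteins. Its levels were 24.0, 22.4 and 20.5 CPM in ctrl and 43.4, 45.6 and 42.5 CPM in caNrf2. Both groups were tight and far apart. The rise was 1.96-fold (1.72 to 2.23), from 22.3 ± 1.75 to 43.8 ± 1.63 CPM, with a log2 fold change of 0.97, SE 0.08 and adjusted p of 7.15e-05. Its 95% confidence interval covers the fold of Txn1.

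Glrx2 (ENSMUSG00000018196, chr1:143716338-143749676, plus strand) stood at 22.7, 20.9 and 21.4 CPM in ctrl and at 21.1, 18.0 and 20.9 CPM in caNrf2. The groups overlapped, with caNrf2 replicate 2 the lowest. The fold was 0.923 (0.800 to 1.06), with a log2 fold change of -0.12, SE 0.09 and adjusted p of 0.399. The upper bound of the interval lies below the lower bound of Glrx.

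The gene Glrx2 is known to make a mitochondrial protein and, from other first exons, shorter proteins without the mitochondrial leader, so the gene total is not purely mitochondrial. By transcript, the 3 coding transcripts with the shortest coding sequence, 372 bases, held 43.0 ± 4.39% of Glrx2 counts in ctrl and 47.9 ± 5.61% in caNrf2. The transcript with 471 coding bases (Glrx2-210) held 12.3 ± 3.36% and 15.02 ± 0.21%, and that with 513 (Glrx2-205) held 6.51 ± 0.72% and 6.31 ± 0.71%. In CPM the 372-base transcripts stood at 9.30 ± 0.77 in ctrl and 9.52 ± 0.55 in caNrf2, and Glrx2-210 at 2.65 ± 0.68 and 3.00 ± 0.24. All protein-coding transcripts together held 61.8 ± 4.64% and 69.3 ± 5.12% of the counts, and the mean shares of 2 transcripts with a retained intron were 12.4 and 8.61% (Glrx2-211) and 14.1 and 12.5% (Glrx2-212).

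Whether a genotype shifted the use of transcripts within a gene was tested with edgeR's diffSpliceDGE over 7992 genes, of which 0.726% were called. Txn2 (6 of 8 transcripts kept), Txnip (2 of 5) and Glrx2 (9 of 13) could be tested, and none was called (adjusted p = 1 for each, and 0.204, 0.917 and 0.794 with limma's diffSplice, which called 0.876% of genes). At an unadjusted p under 0.05 edgeR had 0 of the 3 and limma's diffSplice 1, Txn2. A gene that these tests did not call is not shown to have kept its transcript usage. Txn2-201 held 92.9 ± 0.834% of Txn2 counts in ctrl and 94.8 ± 0.843% in caNrf2. Txnip counts were divided between Txnip-202, with 64.2 ± 2.45% and 62.8 ± 1.83%, and Txnip-201, with 35.5 ± 2.43% and 36.1 ± 1.75%. Their coding sequences differ by 1 codon in length, 1194 and 1191 bases. Txnip-202 stood at 40.6 ± 5.13 and 20.7 ± 1.35 CPM, and Txnip-201 at 22.7 ± 5.02 and 11.97 ± 1.61 CPM.

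The difference between cytosolic and mitochondrial isoenzymes was tested as the log2 ratio of their CPM in each library. Because the Glrx2 total includes forms without the mitochondrial leader, the ratio of Glrx to Glrx2 does not set cytosol against mitochondria alone. Txn1 over Txn2 went from 0.77 ± 0.12 to 1.42 ± 0.10, a difference of 0.66 (1.58-fold). Txnrd1 over Txnrd2 went from 5.78 ± 0.02 to 8.26 ± 0.10, a difference of 2.48 (5.58-fold). Glrx over Glrx2 went from 0.04 ± 0.09 to 1.14 ± 0.18, a difference of 1.09 (2.13-fold). For each of the 3 ratios all 3 caNrf2 libraries lay above all 3 ctrl libraries. The exact two-sided permutation p was 0.1 for each (0.1 adjusted over the 3), which is the smallest this test can give with 3 against 3 libraries, so this test cannot reach 0.05 here.

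**Figure D3:**
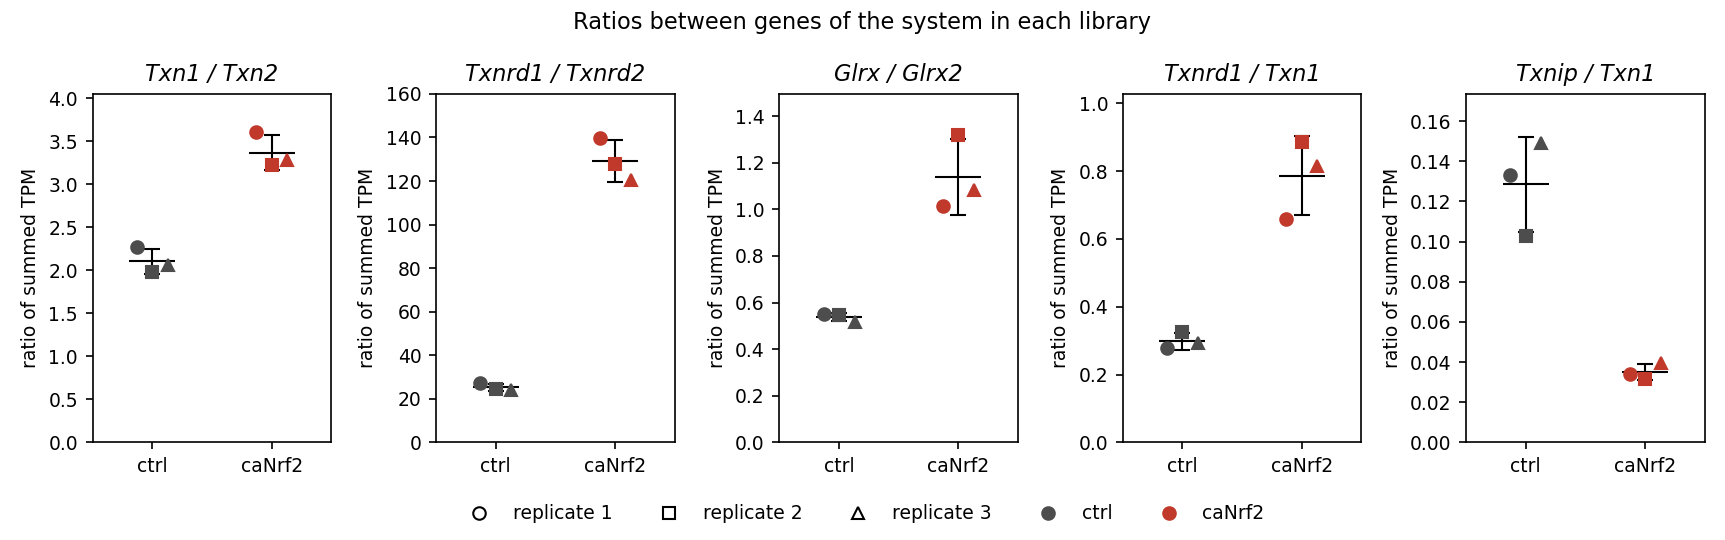
Ratio of the summed TPM of pairs of genes in every library (linear axes from 0; symbols mark replicates, bars the mean of 3 libraries, whiskers 1 SD). The first 3 panels set a cytosolic gene over its counterpart, which is mitochondrial for Txn2 and Txnrd2 and only in part mitochondrial for Glrx2. The fourth sets the reductase Txnrd1 over its substrate Txn1 and the fifth the inhibitor Txnip over Txn1. The caNrf2 libraries lie above ctrl in the first 4 panels and below it in the fifth.

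On the TPM scale, which allows the level of one gene to be set against another, Txn1 stood at 2.27, 1.98 and 2.06 times the level of Txn2 in ctrl and at 3.603, 3.22 and 3.28 times in caNrf2. Glrx was lower than Glrx2 in ctrl, at ratios of 0.551, 0.547 and 0.519, and higher in caNrf2, at 1.01, 1.32 and 1.08. By gene totals the order of the 2 glutaredoxins was thus the opposite in the 2 groups, though in caNrf2 replicate 1 the levels were almost equal. Protein-coding transcripts held a mean of 60.0% of the Glrx2 TPM in ctrl and 65.1% in caNrf2, but 100% of the Glrx TPM. The totals therefore do not give the order of the coding transcripts. Txnrd1 stood at 27.3, 24.5 and 24.3 times Txnrd2 in ctrl and at 140, 128 and 121 times in caNrf2.

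Txnrd1, whose fold change was larger than that of its substrate, was also set against Txn1 in each library. The TPM ratio of Txnrd1 to Txn1 was 0.277, 0.324 and 0.292 in ctrl and 0.658, 0.887 and 0.815 in caNrf2. The ratio of Txnip to Txn1 was 0.133, 0.103 and 0.149 in ctrl and 0.0341, 0.0314 and 0.0394 in caNrf2, so that the mean ratio was 3.67-fold lower in caNrf2. For the mitochondrial thioredoxin, the mean ratio of Txnip to Txn2 was 0.271 in ctrl and 0.118 in caNrf2, and that of Txnrd2 to Txn2 was 0.0247 and 0.0205. These ratios follow from the values above and were not tested apart from them.

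Summed over the 8 genes, TPM was 767, 784 and 742 in ctrl and 1575, 1595 and 1459 in caNrf2, a mean of 764 ± 20.99 against 1543 ± 73.3 (2.02-fold). The share of Txn1 in that sum was 45.1 ± 0.768% in ctrl and 43.3 ± 2.96% in caNrf2. Txnrd1 went from 13.4 ± 0.900% to 33.8 ± 2.92%, and Txn2 from 21.5 ± 1.11% to 12.9 ± 0.0896%. Glrx2 went from 8.07 to 3.61%, Txnip from 5.79 to 1.52% and Txnrd3 from 1.34 to 0.509%. In ctrl the order per length was Txn1, Txn2, Txnrd1, Glrx2, Txnip, Glrx, Txnrd3 and Txnrd2. In caNrf2 it was Txn1, Txnrd1, Txn2, Glrx, Glrx2, Txnip, Txnrd3 and Txnrd2. Both are orders of gene totals, and the total of Glrx2 includes a large part from transcripts that are not protein coding. The ranges of neighbours in these orders did not overlap within a group. The narrowest gaps were between Txnip (35.9 to 49.5 TPM) and Glrx (30.7 to 35.6 TPM) in ctrl and between Glrx (58.4 to 67.5 TPM) and Glrx2 (51.1 to 57.7 TPM) in caNrf2, and for the latter pair the means ± SD overlapped.

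**Figure D4:**
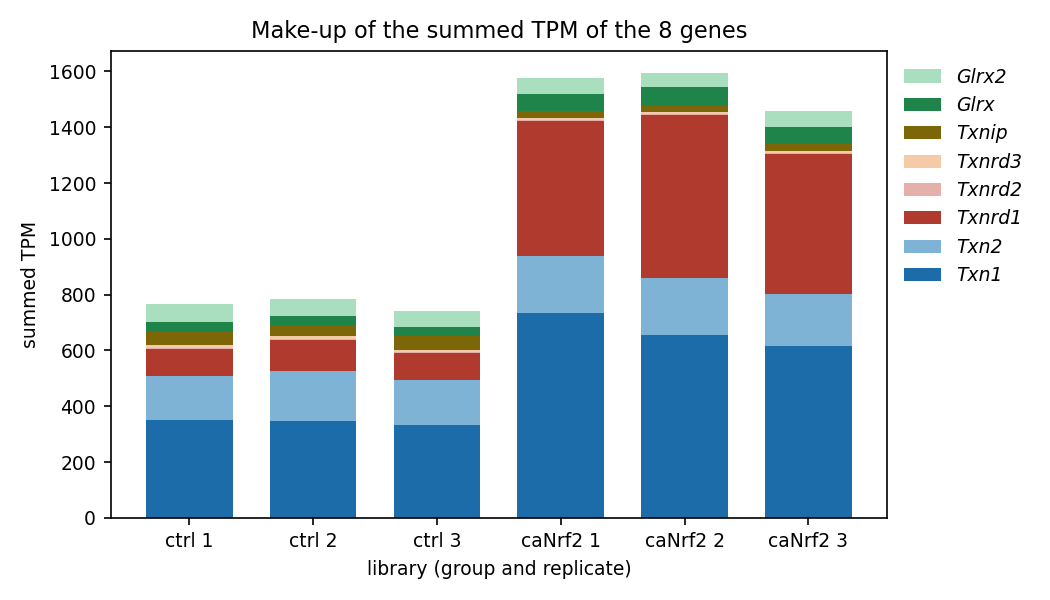
Summed TPM of the 8 genes in every library, as stacked bars from 0 with a colour for each gene. The bars of caNrf2 reach 1459 to 1595 TPM and those of ctrl 742 to 784 TPM, and the Txnrd1 segment grows from 13.4 to 33.8% of the bar.

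Lists of genes that work with the system were then counted in the same fit, where 21.5% of all genes tested were called (12.5% higher, 9.03% lower). The share called was 17.6% for thioredoxin-fold relatives, 7.14% for thioredoxin-dependent enzymes and partners and 12.5% for other selenoproteins. It was 57.1% for NADPH supply and glutathione reductase, the only list above the share over all genes. For the selenocysteine genes and for the alpha-arrestins and Mondo factors it was 0%. Among the 17 thioredoxin-fold relatives, 1 was higher and 2 were lower, with a median log2 fold change of 0.03. Nxn, nucleoredoxin, rose from 103 ± 6.16 to 129 ± 4.89 CPM (0.33 on the log2 scale, adjusted p = 0.0169). Txndc16 fell from 43.8 ± 3.68 to 29.6 ± 1.45 CPM (-0.57, adjusted p = 0.00204), and Txndc12, a thioredoxin-like protein of the endoplasmic reticulum, from 50.1 ± 1.90 to 39.3 ± 3.54 CPM (-0.35, adjusted p = 0.0182). The calls of Nxn and Txndc12 were lost when single libraries were left out: both without ctrl replicate 3 or caNrf2 replicate 3, and Txndc12 also without caNrf2 replicate 2. Of the remaining glutaredoxins, named after their values were seen, Glrx3 had 0.27 (adjusted p = 0.0604) and the mitochondrial Glrx5 0.32 (adjusted p = 0.0754). In this list DESeq2 called 2 higher, Glrx3 among them (0.26, adjusted p = 0.0252 in DESeq2), and 2 lower. Limma-voom called 1 higher and 2 lower. Over all 15341 genes tested DESeq2 called 2057 higher and 1570 lower, and limma-voom 1900 and 1343.

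The 14 enzymes and partners that thioredoxin reduces or binds had a median of 0.13, with 1 higher and 0 lower. Prdx1, a cytosolic peroxiredoxin that thioredoxin recharges, rose 5.75-fold from 332 ± 18.3 to 1908 ± 301 CPM (log2 fold change 2.52, adjusted p = 2.47e-06). The peroxiredoxins of mitochondria, named after their values were seen, were not called by edgeR, with 0.21 for Prdx3 (adjusted p = 0.0979) and 0.32 for Prdx5 (adjusted p = 0.0767). Nor were the remaining peroxiredoxins of the list, also named after their values were seen. Prdx2 had 0.12 (adjusted p = 0.412) and Prdx4 0.14 (adjusted p = 0.364), both smaller than the changes of Prdx3 and Prdx5. At an unadjusted edgeR p under 0.05 there were 5 of the 14. They included Msrb3, named after its values were seen, which had a negative log2 fold change (-0.23). Such p-values were frequent among all genes. Txnrd3, with an unadjusted edgeR p of 0.0160, ranked only 3748 by p among the 15341 tested. DESeq2 called 2 higher, Prdx1 and Prdx5 (0.32, adjusted p = 0.0384 in DESeq2), and 0 lower. Limma-voom called 1 higher and 0 lower.

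The 7 genes of NADPH supply and glutathione reductase had a median of 0.35, with 4 higher and 0 lower. Gsr, which recharges the glutathione that glutaredoxins use, rose 5.26-fold from 34.3 ± 2.00 to 180 ± 9.14 CPM (adjusted p = 2.73e-07). Pgd of the pentose phosphate pathway rose 4.90-fold, from 179 ± 7.51 to 877 ± 73.9 CPM (adjusted p = 8.25e-07). Malic enzyme Me1 rose 1.62-fold (adjusted p = 0.000517) and G6pdx 1.28-fold, from 106 ± 8.59 to 136 ± 2.76 CPM (log2 fold change 0.35, adjusted p = 0.0149). The call of G6pdx was lost without ctrl replicate 1, ctrl replicate 3 or caNrf2 replicate 2.

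Of the 9 genes that make and insert selenocysteine, 0 were called by edgeR, 1 had an unadjusted p under 0.05 (Sephs2, 0.31, adjusted p = 0.0580), and DESeq2 and limma-voom called 0. The median was -0.04. Of 16 other selenoproteins 0 were higher and 2 lower, with a median of 0.12, while DESeq2 called 3 higher and limma-voom 2. Over all 15341 genes tested DESeq2 called 2057 higher and limma-voom 1900. Selenop, a secreted selenium carrier, fell from 159 ± 17.3 to 83.0 ± 12.6 CPM (-0.94, adjusted p = 0.00115). Selenom fell from 38.4 ± 3.87 to 26.4 ± 5.51 CPM (-0.54, adjusted p = 0.0289), a call that was lost without any 1 of ctrl replicates 2 and 3 and caNrf2 replicates 2 and 3. The glutathione peroxidases Gpx1 (0.33, adjusted p = 0.0523) and Gpx4 (0.54, adjusted p = 0.0506), named after their values were seen, lay just outside the threshold. Both were called by edgeR with no filter on low counts (adjusted p = 0.0382 and 0.0111) and with a minimum count of 50 (adjusted p = 0.0468 and 0.0499), where 3 of the 16 genes were called higher. Over all genes 2086 of 24432 were called higher with no filter and 1693 of 12935 with a minimum count of 50.

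Of the 8 relatives of Txnip (the alpha-arrestins) and Mondo factors, 6 were tested and 0 were called by edgeR, DESeq2 or limma-voom, with 0 at an unadjusted p under 0.05. The median was 0.08. Arrdc4, the relative that shares the glucose response of Txnip, had 18.0 ± 2.24 CPM in ctrl against 21.5 ± 2.01 in caNrf2 (0.26 on the log2 scale, adjusted p = 0.145), and Arrdc3 had 0.20 (adjusted p = 0.186); both were named after their values were seen. Arrdc5 and Mlxipl were too low to test.

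**Figure D5:**
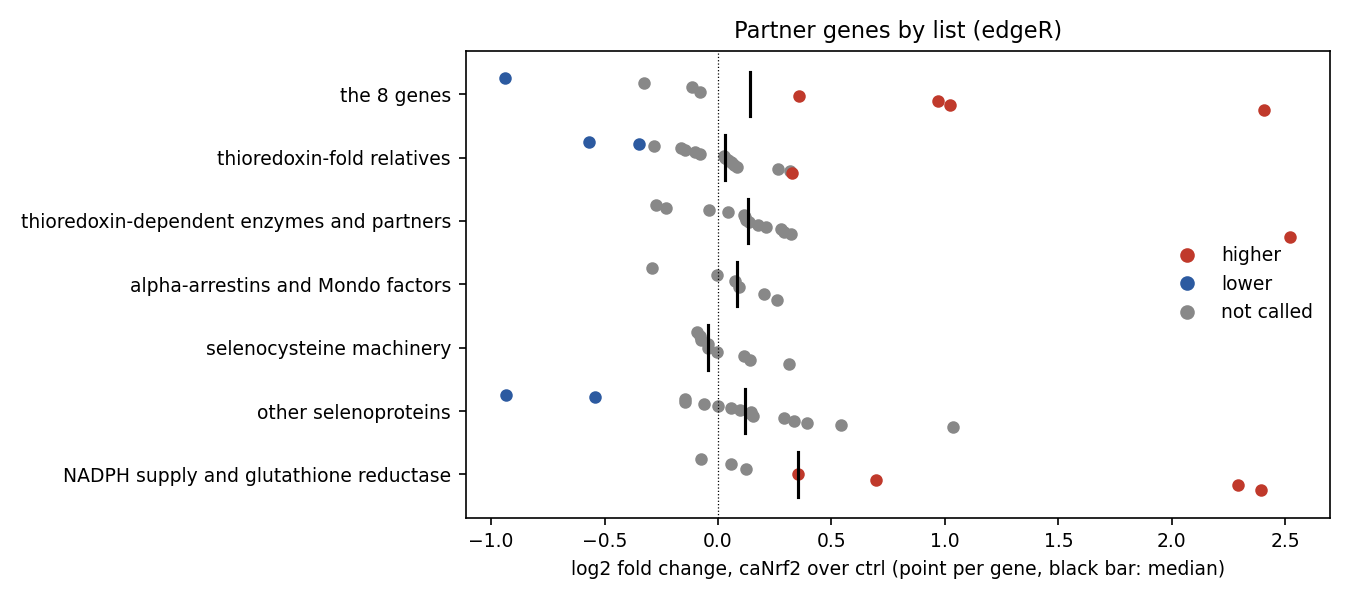
Log2 fold change, caNrf2 over ctrl, of each tested gene (points) in the 8-gene system and in the 6 lists of partner genes, coloured by edgeR call, with the list median as a black bar and a dotted line at 0. The points beyond 2 are Txnrd1, Prdx1, Gsr and Pgd, while list medians lie between -0.04 and 0.35.

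The genes with the profile most like that of a member were found by the root mean square difference of log2 CPM, each gene centred on its own mean over the 6 libraries, among 10831 tested genes with a mean of at least 5 CPM. For Txnrd1 they were Ccdc85a (difference 0.0934, log2 fold change 2.26), Gsr (0.0955, 2.40) and Gclc (0.0986, 2.26), a subunit of the enzyme that begins glutathione synthesis. Ccdc85a was low, with a mean of 2.03 CPM in ctrl and 9.78 CPM in caNrf2. It passed the limit of 5 CPM only through its level in caNrf2. For Txnip they were Lgr4 (0.0704, -0.91), Tlcd1 (0.0717, -0.82) and Selenop (0.0812, -0.94). Such likeness over 6 libraries describes these cultures and was not tested.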

How the data were processed

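Per the file headers, the authors deposited for each library a table of transcripts with expected counts (a maximum likelihood estimate and a posterior mean), TPM and FPKM; the deposited FPKM were not used. RSEM 1.2.21 and CASAVA 1.8 stand in the submitters' processing notes, with the build GRCm38. The aligner, annotation release, strand setting and read length were not given in the sources used here. RSEM divides reads shared between transcripts or paralogs by estimated abundance, so expected counts need not be whole.

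Expected counts were summed per gene and rounded. Of 43629 gene IDs, 42462 matched a symbol. Genes were filtered with filterByExpr (minimum count 10, minimum total 15), scaled by TMM and tested with edgeR 4.0.16 in R 4.3.3 (two-sided quasi-likelihood F test, Benjamini-Hochberg over 15341 genes, threshold 0.05, no block). Log2 CPM used a prior count of 2. Standard errors came from the F statistic. Same-numbered libraries deviated together with correlations of 0.214, 0.209 and 0.0953, and nothing in the labels pairs them, so numbers were not used as pairs. No library pair agreed within sampling noise. The fits were tested on simulated data, where diffSpliceDGE recovered few of the smaller of the transcript shifts that had been put in.

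The members, the partner and marker lists and the motifs were chosen with earlier results of these data known. Named are the members, up to 3 called genes per direction in each partner list, the most abundant marker of each cell type and the 3 nearest profiles of Txnrd1 and Txnip. Others are marked as named after their values were seen. Promoters came from a RefSeq table (GRCm38.p6; all 8 genes matched) and coding sequences from GENCODE M21. Where loci overlap, counts may include reads of the neighbouring gene, since the strand setting is unknown here. Some items are not reported here. The alternatives were DESeq2 1.42.0 size factors and test, total counts, upper-quartile factors, a minimum count of 50, no filter, limma-voom (limma 3.58.1), posterior mean counts, a replicate block, deposited TPM for the ratios and each library left out. The limma diffSplice test was added after seeing the data.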

Additional observations from a re-analysis of the deposited data

How the results depend on the processing

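No direction reversed in any alternative run for the genes named, leaving aside Prdx2, Prdx4 and Msrb3, which were not followed through these runs. Over 15 alternatives the log2 fold change of Txnrd1 stayed between 2.34 and 2.48, of Txn1 between 0.90 and 1.09, of Glrx between 0.91 and 1.02 and of Txnip between -1.07 and -0.86, all called each time. Txn2 (0.30 to 0.41) lost its call in 3 alternatives, and Txnrd3 (-0.43 to -0.28) gained one in 2. Those 2 raised the members called lower from 1 to 2: upper-quartile factors (2) and, among the libraries left out, where the count ranged from 1 to 2, ctrl replicate 3. The cause was not tested. With single libraries left out, the genes called lower ranged from 823 to 1143, against 1385 with all libraries; fewer samples entered these fits. The values were 823 without ctrl replicate 3 and 864 without caNrf2 replicate 2. Upper-quartile factors moved the median of all genes to -0.04, and no scaling moved it further. The replicate block left the members at 4 higher and 1 lower and changed the call of no member. Among the other named genes it ended the call of Selenom (-0.56, adjusted p = 0.0527) and gave one to Glrx3, Glrx5, Sephs2 and Gpx1, so that thioredoxin-fold relatives called higher went from 1 to 3. By their deviations 5 of 6 libraries were closest to the library of their own number, a hint from the data and not from the design. The difference in the 3 isoenzyme ratios ranged from 0.60 to 0.72 for Txn1 over Txn2, from 2.35 to 2.62 for Txnrd1 over Txnrd2 and from 0.99 to 1.15 for Glrx over Glrx2. Their exact permutation test could not reach 0.05 in any setting. Depth limits Txnrd2 most, which had 97 to 166 counts per library.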
